A study of Mus musculus with 6 samples.

Results

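The genes described are Fgr, Lyn, Syk, Btk, Pik3cd, Pik3cg, Pik3r5, Inpp5d and Ptpn6, the core of the Src, Syk and PI3K signalling route of myeloid cells. These 9 genes were chosen by name, with earlier results of these data known, so counts of them give no independent support. All of them were found among the 29097 genes listed and were abundant enough to be among the 10440 genes tested. Expression was measured by Smart-seq2, a method that reverse-transcribes whole mRNAs and amplifies the product by PCR, in peripheral blood (PB) neutrophils sorted as CD45+CD11b+Ly6G+ cells. LIP mice carried silk ligatures around the second molars of both jaws on both sides for 14 d, a model of periodontitis, and Ctrl mice carried no ligature. Both groups were male C57BL/6 mice aged 8 weeks without any genetic change. There were 3 libraries per group, each made from the pooled cells of 5 mice, so the spread between libraries is a spread between pools and not between single animals. The Ctrl libraries held far more erythroid, B cell and T cell RNA than the LIP libraries despite the sort, and Ctrl replicate 2 was low for long genes. The values of both are given after the members.

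In neutrophils, adhesion receptors, Fc receptors and other receptors that signal through ITAM adaptors are phosphorylated by Src family kinases, and the phosphorylated adaptors recruit Syk. Syk and the Tec family kinases then activate phospholipase C and the class I PI3Ks, whose lipid product brings effectors such as Akt and the exchange factors of Rac to the membrane. G protein-coupled receptors for chemokines and formyl peptides reach the gamma isoform of PI3K directly, and the phosphatases SHP-1 (Ptpn6) and SHIP1 (Inpp5d) take phosphate off the proteins and the lipid, respectively. This route is known for its part in adhesion, migration, the oxidative burst and the release of granules.

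Of the 9 genes, 7 were higher in LIP than in Ctrl PB neutrophils, none was lower and 2, Btk and Inpp5d, passed the test in neither direction. The median difference was 0.84 on the log2 scale, against -0.09 over all genes tested. The share of all tested genes called higher was 26.5%, and the share called lower was 27.2%. The same 7 genes had all 3 LIP libraries above all 3 Ctrl libraries in CPM (read counts scaled to library size), as did 30.3% of all tested genes. A call here is an adjusted p under 0.05 in edgeR on TMM-scaled counts, a scaling that sets the libraries to a common level over most genes. These directions depend on that level. When libraries were scaled on mature neutrophil genes instead, no member was higher and 8 were lower, as described with the marker genes further on. On that scale 44 of all 10440 tested genes were called higher and 9360 lower.

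**Figure D1:**
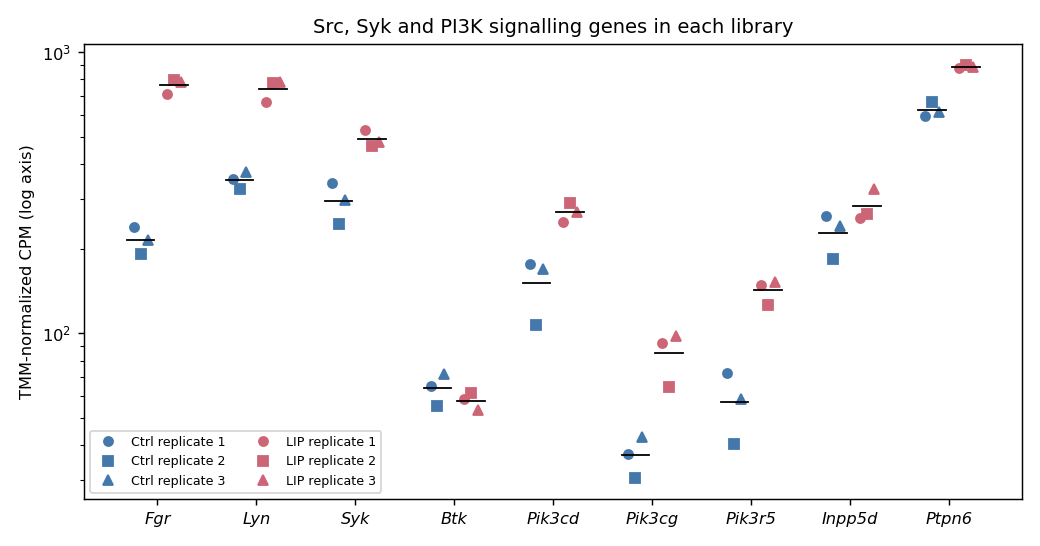
TMM-normalized CPM on a vertical log axis for the 9 genes, with 1 point for each of the 3 Ctrl and 3 LIP libraries, shaped by replicate, and a bar at each group mean. The LIP libraries lie above all Ctrl libraries for 7 genes, and the groups overlap for Btk and Inpp5d.

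Fgr and Lyn encode Src family kinases of myeloid cells, which act first on the ITAM adaptors and, in the case of Lyn, also on inhibitory receptors. Fgr lies on chromosome 4 (GRCm38, chr4:132974095-133001910, plus strand, ENSMUSG00000028874) and was measured at 239, 191 and 215 CPM in the Ctrl libraries and at 709.7, 799 and 781 CPM in the LIP libraries. Every LIP library held more than the highest Ctrl library, and the means were 215 ± 23.9 and 763 ± 47.0 CPM (SD, n = 3 each). The difference was 1.83 on the log2 scale (SE 0.108, 95% interval 1.59 to 2.07), or 3.55-fold, with an edgeR adjusted p of 5.36e-07. It was the highest of the 9 genes and stood at the percentile 97.0 of all tested genes. Lyn (chr4:3678115-3813122, plus strand, ENSMUSG00000042228) was at 355, 325 and 374 CPM in Ctrl and at 665, 776 and 781 CPM in LIP. Here too the groups were apart, with means of 351 ± 24.9 and 741 ± 65.5 CPM. The log2 difference of Lyn was 1.08 (SE 0.101, 95% interval 0.85 to 1.30; edgeR adjusted p = 1.03e-05), a 2.11-fold higher level. Lyn overlaps the antisense gene 9430025C20Rik, whose mean was 1.52 FPKM against 120.3 FPKM for Lyn, and the library type does not tell the strands apart.

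Syk, the kinase that binds phosphorylated ITAMs, and Btk, a Tec family kinase known best from B cells and also present in myeloid cells, differed from each other. Syk (chr13:52583173-52648792, plus strand, ENSMUSG00000021457) gave 342, 245 and 299 CPM in Ctrl and 527, 465 and 478 CPM in LIP. The lowest LIP library was above the highest Ctrl library, and the log2 difference was 0.73 (SE 0.126, 95% interval 0.45 to 1.01; edgeR adjusted p = 0.00072). Btk (chrX:134542336-134583140, minus strand, ENSMUSG00000031264) gave 64.9, 55.3 and 71.8 CPM in Ctrl and 58.5, 61.2 and 53.2 CPM in LIP. The groups overlapped, and the log2 difference of Btk was -0.15 (SE 0.140, 95% interval -0.46 to 0.16; edgeR adjusted p = 0.382). Btk was the only member with a mean below Ctrl, and it was called lower with library totals in place of TMM (log2 difference -0.47, edgeR adjusted p = 0.0158) and on FPKM (-0.43, limma adjusted p = 0.0201).

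The class I PI3K members were all higher in LIP on this scale and lower under neutrophil scaling. Pik3cd, which encodes the delta catalytic subunit used by tyrosine kinase-linked receptors of leukocytes (chr4:149649168-149702571, minus strand, ENSMUSG00000039936), was at 177, 107 and 169.6 CPM in Ctrl and at 248, 291 and 271 CPM in LIP. Its Ctrl libraries spread widely, with a coefficient of variation of 25.4% against 7.94% in LIP, and the groups did not overlap. The log2 difference was 0.84 (SE 0.174, 95% interval 0.45 to 1.22; edgeR adjusted p = 0.00237). Pik3cg, which encodes the gamma catalytic subunit driven by G protein-coupled receptors (chr12:32173473-32208659, minus strand, ENSMUSG00000020573), was at 37.2, 30.5 and 42.7 CPM in Ctrl and at 92.5, 64.2 and 97.8 CPM in LIP. It was the least abundant member per length and the one with the widest LIP spread (21.3%), yet the lowest LIP library exceeded the highest Ctrl library, and the log2 difference was 1.20 (SE 0.189, 95% interval 0.79 to 1.62; edgeR adjusted p = 0.000386). Pik3r5 encodes the larger of the regulatory subunits that pair with the gamma subunit (chr11:68432121-68497849, plus strand, ENSMUSG00000020901). It was at 72.3, 40.3 and 58.2 CPM in Ctrl and at 149, 126 and 152 CPM in LIP, with a log2 difference of 1.32 (SE 0.193, 95% interval 0.89 to 1.75; edgeR adjusted p = 0.000241). The 2.50-fold level of Pik3r5 and the 2.30-fold level of Pik3cg were close, with overlapping intervals.

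After Btk, the phosphatases had the smallest differences. Inpp5d, the SHIP1 lipid phosphatase that removes the 5-phosphate from the PI3K product (chr1:87620312-87720507, plus strand, ENSMUSG00000026288), was at 261, 184 and 240 CPM in Ctrl and at 257, 265 and 326 CPM in LIP. The first Ctrl library lay between the LIP libraries, and the log2 difference of 0.31 missed the threshold (SE 0.147, 95% interval -0.02 to 0.63; edgeR adjusted p = 0.0996). It passed with DESeq2 (0.35, DESeq2 adjusted p = 0.0332) and without Ctrl replicate 1 (0.42, edgeR adjusted p = 0.0461), and the difference was -0.01 with library totals. Ptpn6, the SHP-1 tyrosine phosphatase recruited by ITIM receptors (chr6:124720707-124738625, minus strand, ENSMUSG00000004266), was at 591, 663 and 612 CPM in Ctrl and at 879, 903 and 884 CPM in LIP. The LIP libraries were tightly grouped (coefficient of variation 1.42%) and apart from Ctrl, and the log2 difference was 0.51 (SE 0.0828, 95% interval 0.33 to 0.70; edgeR adjusted p = 0.000451). With library totals the log2 difference of Ptpn6 was 0.20 and missed the threshold (edgeR adjusted p = 0.0507). Ptpn6 overlaps the antisense gene Gm20531, at a mean of 3.40 FPKM against 246 FPKM for Ptpn6.

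**Figure D2:**
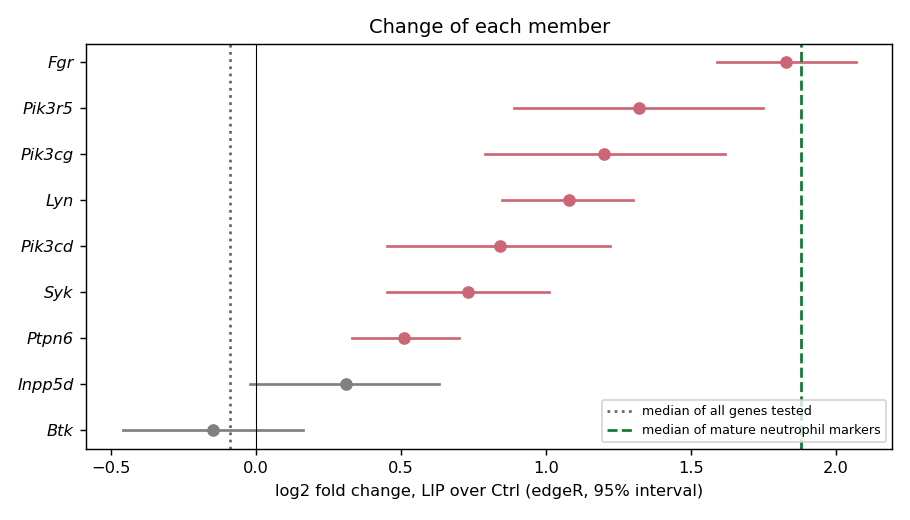
Log2 difference between LIP and Ctrl on the horizontal axis for each of the 9 genes, with the 95% interval as a bar and lines at the medians of all tested genes and of the mature neutrophil markers. Coloured points passed an adjusted p of 0.05 and the grey points, Btk and Inpp5d, did not, and with libraries scaled on mature neutrophil genes all the values lie below 0.

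The start sites of Fgr, the gene with the highest difference, and of Inpp5d and Btk, which were not called, are shown because these differ most in outcome and their reference transcripts begin at the same base as the gene in the deposited table. Each line is the 250 bases before the start, 5′ to 3′ in the direction of transcription, from RefSeq on GRCm38.p6, with capitals marking GGAAG, a core read by Ets factors, on either strand. The windows are chr4:132973845-132974094 on the plus strand for Fgr, chr1:87620062-87620311 on the plus strand for Inpp5d and chrX:134583141-134583390 on the minus strand for Btk.
Fgr: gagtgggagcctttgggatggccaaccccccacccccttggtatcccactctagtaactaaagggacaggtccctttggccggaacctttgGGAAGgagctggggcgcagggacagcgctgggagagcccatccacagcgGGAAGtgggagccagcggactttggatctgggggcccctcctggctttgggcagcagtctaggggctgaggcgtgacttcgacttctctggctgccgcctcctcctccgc
Inpp5d: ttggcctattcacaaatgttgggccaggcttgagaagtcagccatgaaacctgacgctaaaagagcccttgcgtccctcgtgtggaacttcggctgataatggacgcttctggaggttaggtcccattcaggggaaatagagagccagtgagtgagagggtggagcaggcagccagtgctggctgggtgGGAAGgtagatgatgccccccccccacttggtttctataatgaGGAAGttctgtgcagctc
Btk: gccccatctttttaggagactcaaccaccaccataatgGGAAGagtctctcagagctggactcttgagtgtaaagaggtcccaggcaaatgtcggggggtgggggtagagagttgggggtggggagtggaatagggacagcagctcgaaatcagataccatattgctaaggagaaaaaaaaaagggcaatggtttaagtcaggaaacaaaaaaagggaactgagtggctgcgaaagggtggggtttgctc
In these 250 bases, GGAAG lay 159 and 110 bases before the start of Fgr, 61 and 18 bases before the start of Inpp5d, and 212 bases before the start of Btk. Searched from 250 bases before to 50 after the start, on both strands, GGAAG was in 9 of the 12 windows of the 8 members that had one, and in 71.4% of all 32851 windows. The longer PU.1 core GAGGAA, which can overlap GGAAG, was in 6 of the 12 windows, belonging to 5 members (Fgr, Syk, Btk, Pik3cg and Inpp5d), and in 28.3% of all windows. It was found 31 bases after the start of Fgr, 20 bases before and 3 bases after that of Inpp5d, and 9 bases after that of Btk. The 2 windows of Pik3cg overlap, and the same bases with GAGGAA and GGAAG are counted in each of them. The counts of windows are therefore not counts of separate sites. Neither the interferon response element, read as GAAA followed by any 2 bases and GAAA (3.44% of all windows), nor the C/EBP form TTGCNNAA (10.8%) was in a member's window. Lyn had no window.

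The members spanned a wide range of levels per transcript length, read as FPKM (fragments per length of the gene and per library total). In Ctrl, Ptpn6 was highest at 229 ± 10.2 FPKM, followed by Lyn at 89.0 ± 7.08 and Fgr at 57.5 ± 7.33 (SD, n = 3). Syk (32.6 ± 5.87), Inpp5d (31.0 ± 5.88), Pik3cd (25.0 ± 6.64) and Btk (21.0 ± 2.86 FPKM) followed, and neighbours in that run overlapped in their libraries. Pik3r5 (10.6 ± 3.15) and Pik3cg (4.50 ± 0.781 FPKM) were lowest and apart from their neighbours. The order changed at several points in LIP. Fgr stood at 165 ± 10.9 FPKM beside Lyn at 152 ± 14.1 FPKM, with overlapping libraries, where in Ctrl Lyn had been above Fgr in every library. Btk at 15.2 ± 1.07 FPKM lay below Pik3r5 at 21.3 ± 2.04 FPKM, the reverse of their Ctrl order, and Syk (43.6 ± 2.70 FPKM) was apart from Pik3cd (36.0 ± 3.01 FPKM). Ptpn6 (264 ± 4.75 FPKM) kept the first place and Pik3cg (8.38 ± 1.78 FPKM) the last, and Inpp5d had the same mean of 31.0 FPKM in both groups. FPKM divides by the library total without TMM, so log2 differences between LIP and Ctrl lie lower on this scale than in CPM, nearer to 0 for the members above 0 and further below 0 for Btk.

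The ratio of a pair of members inside a library does not depend on how libraries are scaled. The 9 pairs share members, so their ratios restate the differences given above and are not separate results. The share over other pairs of genes was not computed. Of these 9 pairs, 7 had ratios in all 3 LIP libraries above those in all 3 Ctrl libraries. Each of these gave p = 0.1 in a two-sided exact permutation test, the smallest p that 3 libraries against 3 allow, and 0.129 after Benjamini-Hochberg adjustment over the 9 pairs, so none could pass the threshold of 0.05. The Fgr to Lyn ratio, which compares the Src family kinases, was 0.710, 0.620 and 0.607 in Ctrl and 1.12, 1.08 and 1.05 in LIP, a 1.69-fold difference. Fgr to Ptpn6, the kinase over the phosphatase, differed most, from 0.293, 0.209 and 0.256 in Ctrl to 0.586, 0.642 and 0.641 in LIP (2.49-fold). Every LIP library held more Fgr relative to Lyn and to Ptpn6 than any Ctrl library did.

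For Lyn, the mean difference in the log2 ratio was 0.56 to Ptpn6 and 0.76 to Inpp5d, with the groups apart in both. The Syk to Btk ratio was 1.77, 1.49 and 1.40 in Ctrl and 3.03, 2.56 and 3.03 in LIP (1.85-fold). For the lipid kinases against SHIP1, Pik3cg to Inpp5d differed by 0.88 and Pik3cd to Inpp5d by 0.55 on the log2 scale, and the latter ratio went from 0.824, 0.708 and 0.858 to 1.17, 1.34 and 1.01. The remaining pairs overlapped. The Pik3cd to Pik3cg ratio was 6.41, 4.74 and 5.35 in Ctrl and 3.62, 6.12 and 3.73 in LIP (exact permutation p = 0.3, adjusted 0.338). The regulatory to catalytic ratio Pik3r5 to Pik3cg was 2.95, 2.01 and 2.07 in Ctrl and 2.44, 2.99 and 2.35 in LIP (exact permutation p = 0.5). With 3 libraries a side these tests cannot show that the PI3K subunits kept a fixed ratio.

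**Figure D3:**
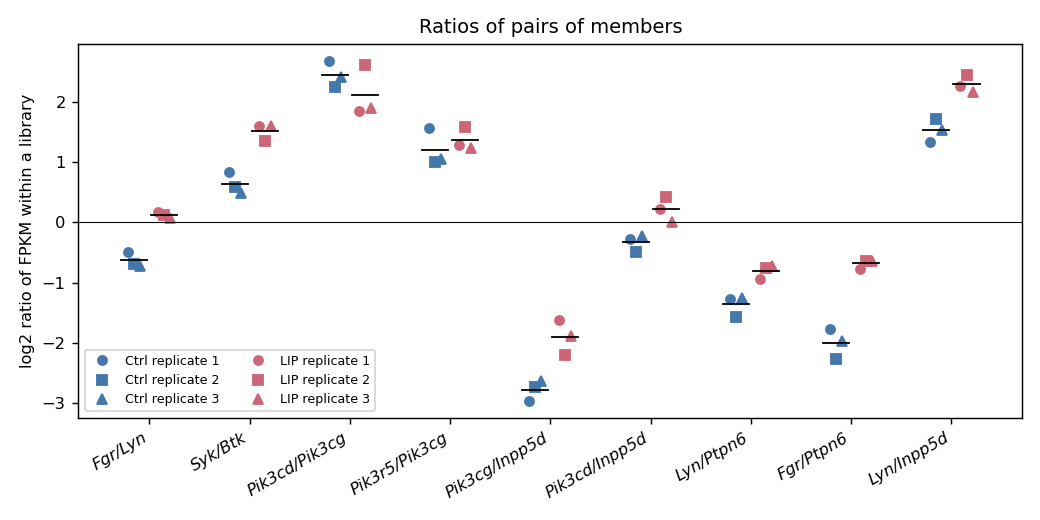
Log2 of the within-library FPKM ratio on the vertical axis for 9 pairs of members, with 1 point per library and the group mean as a bar. The LIP points lie above the Ctrl points in 7 pairs and overlap them for Pik3cd to Pik3cg and Pik3r5 to Pik3cg.

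Other genes of the route were read from 6 lists that hold none of the members. Of 99 genes listed, 89 were tested. LIP was higher in 46 of these (51.7%) and lower in 16 (18.0%), and the median log2 difference was 0.43. On the scale set by mature neutrophil genes, 1 gene of these lists, Siglece, was still called higher, as were 44 of all 10440 tested genes. The list of Src family kinases and their regulators was split, with 4 of 9 higher, 4 lower and a median of -0.30. Ptprc, the CD45 phosphatase that opens Src kinases, rose from 1027 ± 218 to 2333 ± 173 CPM (log2 difference 1.18, SE 0.137, edgeR adjusted p = 4.68e-05). Blk, a Src kinase of B cells, fell from 89.0 ± 2.04 to 18.2 ± 6.58 CPM (log2 difference -2.29, edgeR adjusted p = 2.67e-05). The other 3 that fell were Lck (-1.32) and Fyn (-0.81), kinases of T cell receptor signalling, and Cblb (-1.18), a ubiquitin ligase, named after their values were seen.

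Among Syk and Tec kinases, ITAM adaptors and substrates, 10 of 21 were higher and 7 lower, with a median of 0.23. Tyrobp (DAP12), an ITAM adaptor upstream of Syk, rose from 912 ± 66.2 to 2609 ± 72.6 CPM (log2 difference 1.52, SE 0.0800, edgeR adjusted p = 2.83e-07), and Bmx, a Tec kinase found in granulocytes, from 21.6 to 72.8 CPM (1.75, edgeR adjusted p = 1.05e-05). Blnk, the adaptor that couples Syk to Btk in B cells, fell from 139 ± 8.99 to 25.0 ± 6.60 CPM (-2.47, edgeR adjusted p = 2.06e-06). Among the lower genes were also Zap70 (-1.27) and Lat (-1.50) of the T cell receptor route. Lat2 (-1.31), Vav2 (-1.47) and Grap2 (-1.21) were lower too. All of these were named after their values were seen. The 12 B cell and 12 T cell markers were all lower in LIP as well, and their part in these results was not tested.

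Of 12 other PI3K subunits and adaptors, 4 were higher, 1 lower and 7 neither, a share of higher genes (33.3%) near that of all tested genes. Gab2, an adaptor that recruits PI3K, had the highest difference, from 20.3 to 80.4 CPM (1.99, SE 0.134, edgeR adjusted p = 1.17e-06), and Pik3ip1, an inhibitor of the catalytic subunits, the lowest, from 87.0 to 27.6 CPM (-1.66, edgeR adjusted p = 1.3e-05). Pik3ap1 (BCAP), the most abundant of the list, gave 0.53 with overlapping libraries (edgeR adjusted p = 0.031). The call of Pik3ap1 was lost in several settings. Among them were library totals (0.20) and the fits without Ctrl replicate 2 (0.38), LIP replicate 2 (0.44) or LIP replicate 3 (0.47). Pik3r6, the alternative regulatory partner of the gamma subunit and named after its values were seen, was higher by 1.91 (edgeR adjusted p = 6.67e-05). Of the broadly expressed class IA subunits, also named after their values were seen, Pik3cb was higher by 1.64 (edgeR adjusted p = 0.00037), and Pik3ca, Pik3r1 and Pik3r2 were not called, at -0.00, 0.20 and 0.49.

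Of 16 PI3K effectors, 10 were higher and 1, Plekha2, a protein that binds the product of SHIP1, was lower (-1.12, edgeR adjusted p = 0.000341). Rac2, the Rac GTPase of the neutrophil oxidase, rose from 888 ± 66.5 to 1831 ± 47.4 CPM (1.04, edgeR adjusted p = 2.82e-06), and Arap3, a GTPase regulator bound by the PI3K lipid, from 16.1 to 57.7 CPM (1.84, edgeR adjusted p = 1.01e-05). Of 17 other lipid and tyrosine phosphatases, 8 were higher and 2 lower. Ptpn12 had the highest difference (1.64, edgeR adjusted p = 4.66e-05), Ptpn1 was the most abundant (360.1 to 882 CPM, 1.29, edgeR adjusted p = 1.93e-06) and Inpp4b, a lipid 4-phosphatase, the lowest (-1.70, edgeR adjusted p = 0.000253). The other gene called lower was Ubash3a (-1.20), a phosphatase-like protein of T cells, named after its value was seen.

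Of 14 ITIM receptors and Dok adaptors, which recruit Ptpn6 and Inpp5d, 10 were higher and 1 lower, with a median of 0.93. Siglece, a sialic acid receptor of neutrophils, rose from 75.6 ± 0.567 to 337 ± 12.7 CPM (2.16, SE 0.0999, edgeR adjusted p = 1.55e-07). Lilrb4a rose by 1.97 (edgeR adjusted p = 4.64e-07), but overlaps Gm49339 (63.3 FPKM) on the same strand, so its counts are uncertain. Cd72, an ITIM receptor of B cells, fell from 106 to 18.2 CPM (-2.54, edgeR adjusted p = 1.48e-05). Fcgr2b, the inhibitory Fc receptor that recruits SHIP1, was higher by 0.34 (edgeR adjusted p = 0.0399), and Pirb, a receptor that recruits SHP-1, by 1.88, the former named after its value was seen.

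**Figure D4:**
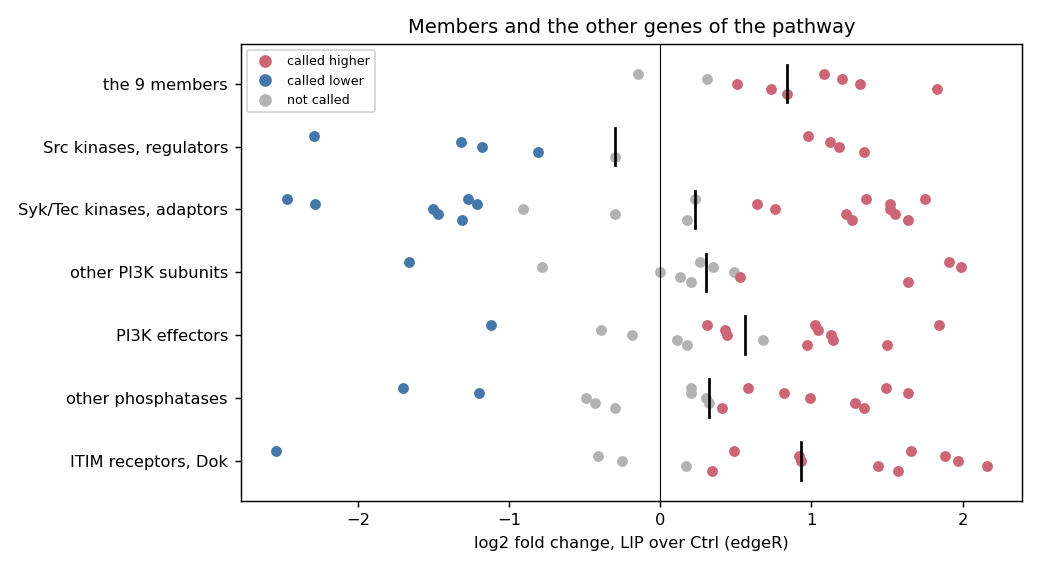
Log2 difference between LIP and Ctrl on the horizontal axis for every tested gene of the 9 members and the 6 pathway lists, coloured by its call, with a bar at each median. The medians run from -0.30 for Src kinases and their regulators to 0.93 for ITIM receptors and Dok adaptors, and on a scale set by mature neutrophil genes 1 of the list genes stays higher.

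For each member, the gene of these lists that tracked it most closely was the one with the smallest SD of the log2 CPM ratio over the 6 libraries. Pirb, an inhibitory receptor, was closest to Fgr (SD 0.0894) and was higher by 1.88. Vav1, a Rac exchange factor activated by Syk, was closest to Syk (SD 0.0761) and to Pik3cd (SD 0.132). Rac1 was closest to Lyn (SD 0.107), Vav3 to Pik3cg (SD 0.180), Ptprc to Pik3r5 (SD 0.115) and the adaptor Grb2 to Ptpn6 (SD 0.107). Pdpk1, a kinase that activates Akt, was closest to Btk (SD 0.144) and not called itself (-0.19, edgeR adjusted p = 0.314), and the phosphatase gene Ptprj was closest to Inpp5d (SD 0.153). These genes were read in the same 6 libraries as the members, so they share depth, scaling and the difference between the groups. In the annotations of the deposited table, 6 members carry the platelet activation term (Lyn, Syk, Btk, Pik3cd, Pik3cg and Pik3r5) and 6 the B cell receptor signalling term (Lyn, Syk, Btk, Pik3cd, Inpp5d and Ptpn6). The chemokine signalling term is carried by 5 (Fgr, Lyn, Pik3cd, Pik3cg and Pik3r5), and the Fc epsilon RI term also by 5 (Lyn, Syk, Btk, Pik3cd and Inpp5d). The Kaposi sarcoma-associated herpesvirus infection term is carried by 5 too (Lyn, Syk, Pik3cd, Pik3cg and Pik3r5). Lyn and Pik3cd carry each of these terms. Of all tested genes, 81, 63, 114, 46 and 137 carry them, in the order given. The members were chosen by name as genes of this route, so the shared terms are not a result.

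Marker genes of the cell types a blood sort can hold moved with the groups, and their part in the members' differences was not tested. All 21 mature neutrophil markers were higher in LIP, with a median log2 difference of 1.88 and a summed level of 15698 to 17314 CPM in Ctrl and 59692 to 64562 CPM in LIP; S100a9 (2.03) and S100a8 (1.95) were the most abundant, and Ly6g, the sort antigen and named outside the rule, was at 17.2 and 50.5 CPM. All 9 erythroid markers were lower (median -3.01, summed 129768 to 138136 CPM in Ctrl and 17585 to 18327 CPM in LIP, led by Hba-a1 at -2.80 and Hba-a2 at -2.89). All 12 B cell markers were lower (median -2.53, summed 7396 to 7927 and 1646 to 1799 CPM, with Ighm at -2.15 and Cd79a at -2.63), as were all 12 T cell markers (median -2.42, summed 848 to 948 and 176 to 198 CPM, with Trbc2 at -2.50 and Cd2 at -1.86). Neutrophil markers were thus present in both groups, and in Ctrl the summed erythroid level was above the summed mature neutrophil level. In bulk libraries, fewer cells of a type and less RNA per cell cannot be told apart.

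Monocyte markers, which a gate on Ly6G should leave out, were higher in 8 of 8 (median 1.04, summed 576 to 698 CPM in Ctrl and 1372 to 1503 CPM in LIP; Ly6c2 at 0.79 and Csf1r at 1.39). Platelet markers were higher in 8 of 8 (median 1.24, summed 986 to 1188 and 2536 to 3011 CPM; Ppbp at 1.23 and Pf4 at 1.21). Of 7 NK cell markers 3 were higher (median 0.20; Nkg7 at -0.15 and Gzma at 0.20, neither called; summed 562 to 651 and 640 to 696 CPM), and of 5 eosinophil and basophil markers 1, Siglecf, was higher (median 0.66, Siglecf 1.44 and Ccr3 0.66; summed 15.5 to 25.6 and 38.5 to 49.1 CPM). Of 7 tested immature neutrophil markers 4 were higher (median 0.39; Ngp at 0.81 and Camp at 0.39; summed 2296 to 2767 and 4084 to 4299.9 CPM). The promyelocyte genes Mpo (mean 2.78 CPM in Ctrl and 0.282 CPM in LIP) and Ctsg (0.0 and 0.0261 CPM) were too low to be tested. Elane (1.84 and 0.725 CPM) and Prtn3 (2.18 and 2.15 CPM) of the same list were not called. These 4 genes were named after their values were seen. Fgr, Lyn, Syk and Btk are also expressed by several of these cell types. The B cell receptor signalling term that Pik3cd, Inpp5d and Ptpn6 carry is an annotation and does not show which cells express them. The cells that gave the reads were not resolved for any member, and the ratios of pairs share this limit.

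The members were also read on other scales. When the mature neutrophil genes set the scale, the median of all tested genes went to -1.97, and Fgr was at -0.05 (edgeR adjusted p = 0.696). The log2 differences of the other members lay between -2.02 for Btk and -0.55 for Pik3r5. All of these other members were called lower, as were 9360 of all 10440 tested genes. Against that median, Fgr stood 1.92 above it, Pik3r5 1.42, Pik3cg 1.31, Lyn 1.17, Pik3cd 0.93, Syk 0.83, Ptpn6 0.61 and Inpp5d 0.41 above it, and Btk 0.06 below it. With library totals the median was -0.42, 6 members were higher and Btk was lower, and the distances from the median were close to these, such as 1.92 for Fgr and -0.06 for Btk. TMM, library totals and neutrophil scaling differ only in the factor given to each library, which moves all genes by nearly the same amount. The order of the members and their distances from the median were therefore nearly fixed in advance, while the sign of a difference was not.

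**Figure D5:**
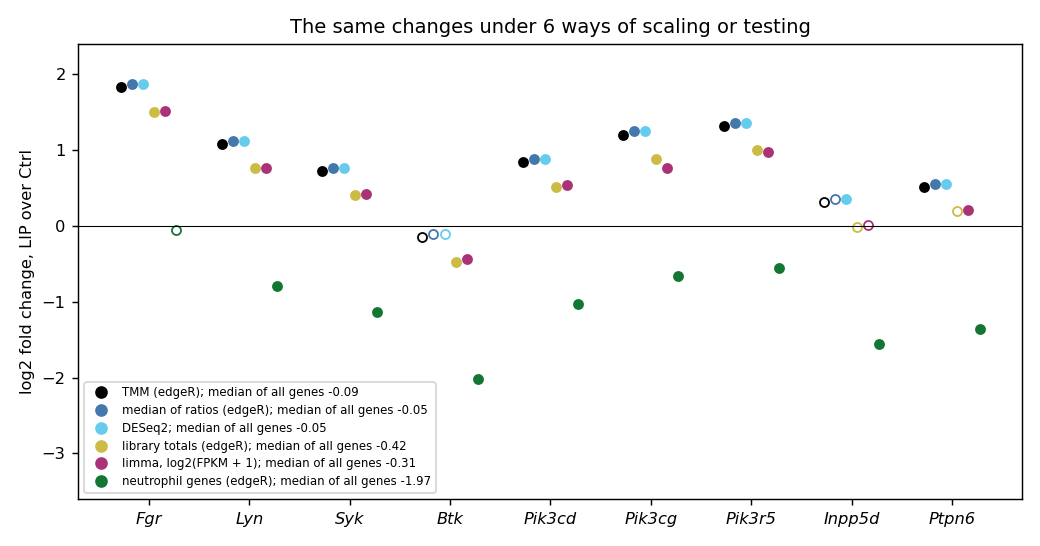
Log2 difference between LIP and Ctrl on the vertical axis for the 9 members under 6 ways of scaling or testing, with the median of all tested genes in the legend. Filled points passed an adjusted p of 0.05 and open points did not. Fgr is highest and Btk lowest each time, and on the scale set by mature neutrophil genes all the members lie below 0.

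Ctrl replicate 2 stood apart for these genes. It was the lowest Ctrl library in 8 of 9 members, all but Ptpn6, against 37.7% of all tested genes and 57.1% of those in the top tertile of exonic length. Its log2 ratio to the other Ctrl libraries had a median of 0.19 over short genes, -0.01 over the middle tertile and -0.19 over long genes, and was -0.69 for Pik3cd and for Pik3r5, -0.45 for Inpp5d and -0.39 for Syk and for Pik3cg, which are all in the long tertile. In the middle tertile it was -0.31 for Btk, -0.25 for Fgr and -0.17 for Lyn, below that tertile's median, and 0.14 for Ptpn6. Without this library the same 7 members were called, with log2 differences of 1.77 for Fgr, 1.04 for Lyn, 0.63 for Syk, 0.66 for Pik3cd, 1.11 for Pik3cg, 1.14 for Pik3r5 and 0.58 for Ptpn6, and Inpp5d was at 0.19 and Btk at -0.23. Long genes as a whole differed little between the groups (median -0.02, against -0.25 for short genes), and taking the median of a member's own tertile away left differences from -0.06 for Btk to 1.91 for Fgr.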

How the data were processed

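The data were 6 Smart-seq2 libraries of sorted PB neutrophils, 3 LIP and 3 Ctrl, grouped by the sample labels. RNA was copied from an oligo-dT primer, amplified by PCR and sequenced in pairs. No molecular identifiers were used, so PCR copies count as reads. The submitters' processing notes name cutadapt 1.9, FastQC and GRCm38, and the aligner, the counter and the use of strand are not given in the sources used here. The authors deposited unnormalized counts of reads and FPKM values, which the authors made from the counts by gene length and library total. Library totals lay between 52186555 and 57262379 counts. For 50 gene names listed on more than 1 row, the more abundant row was taken.

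The 10440 genes whose FPKM averaged 1 or more across libraries entered edgeR 4.0.16 (R 4.3.3), quasi-likelihood F test with TMM and Benjamini-Hochberg adjustment. The common biological coefficient of variation was 0.265. CPM values are counts scaled with TMM. Intervals use the quantile of the moderated degrees of freedom. Alternatives were DESeq2 1.42.0, limma 3.58.1 on log2(FPKM + 1) and log2(FPKM + 0.1), other scalings and filters, a replicate block and the removal of each library in turn; the comparison by transcript length was added after seeing the data. The p-values measure the spread between libraries, and nothing in the labels says whether pools came from separate sessions.

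The members and lists were chosen with earlier results of these data known, and they give no independent support. Named genes are the members, the highest and the lowest called gene and the most abundant gene of each pathway list, the gene closest to each member, and the 2 most abundant of each marker list; others are marked as named after their values were seen. A gene that this rule would name is not reported here. The lists are Src kinases, Syk and Tec kinases, PI3K subunits, PI3K effectors, phosphatases, ITIM receptors, and markers of mature and immature neutrophils, B cells, T cells, NK cells, monocytes, eosinophils and basophils, platelets and erythroid cells. Epx was not analysed here. Cd72, Grb2, Plekha2, Ptprc and Rac1 also overlap other expressed genes, and their counts are uncertain there. Promoter windows are from RefSeq (GRCm38.p6).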

Additional observations from a re-analysis of the deposited data

How the results depend on the processing

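Over all genes, 5601 were called, with 49.4% of them higher. That count was 9404 (0.468% higher) with libraries scaled on mature neutrophil genes, 3637 when only those averaging 5 FPKM or more were tested, 6065 (31.6% higher) with library totals, 6259 (32.1% higher) with limma on log2(FPKM + 1), and 4674 to 5385 when each library was left out. Members called higher numbered 7. They numbered 0 under neutrophil scaling, 6 with library totals, 8 with DESeq2 and 7 to 8 without each library. Members called lower numbered 0, but 8 under neutrophil scaling and 1, Btk, with library totals and with limma at a pseudocount of 1 or of 0.1. Under neutrophil scaling 9360 of all 10440 tested genes were called lower and 44 higher.

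Under neutrophil scaling the log2 differences turned to -0.05 for Fgr, -0.79 for Lyn, -1.14 for Syk, -1.03 for Pik3cd, -0.66 for Pik3cg, -0.55 for Pik3r5, -1.56 for Inpp5d and -1.36 for Ptpn6. Among list genes they turned to -0.12 for Bmx, -0.36 for Tyrobp, -1.34 for Pik3ap1, -0.03 for Arap3, -0.83 for Rac2, -0.23 for Ptpn12, -0.58 for Ptpn1, -0.86 for Rac1, -1.11 for Vav1, -0.63 for Vav3, -0.69 for Ptprc, -1.46 for Ptprj and -1.24 for Grb2. The scale is set by genes that were themselves higher in LIP (median 1.88), so it lowers all values by construction. Leaving out 1 library changed 1 member's call, that of Inpp5d without Ctrl replicate 1, and Ptprj lost its call when any 1 of 5 libraries was left out (0.34 to 0.42).

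The replicate block gave 5546 genes called and 7 members higher, and changed no member's call. Same-numbered libraries come from different mice, and their deviations from the group means correlated at -0.0083, 0.0444 and 0.0210, so the numbers only name libraries. Depth was at least 52186555 counts in every library, and the lowest count of a member was 1826 (Pik3cg in Ctrl replicate 2). The effect of depth on the members was not tested. With 3 pools per group the ratio tests cannot pass 0.05, and strand and aligner are not given in the sources used here.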
